A study of Mus musculus with 6 samples.

Results

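The genes of glycolysis, the pentose phosphate pathway and the hypoxia response were described in mouse T-ALL cells (T cell acute lymphoblastic leukaemia, here of the labelled type Notch1 T-ALL). The group was taken by symbol: 39 named genes, all 39 of them present among the 13185 rows of the expression table and all 39 among the 12554 genes with a mean of at least 0 on the log2 scale that were tested. Their expression did not enter that choice by symbol, although results of these data were known when the group was named.

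Panobinostat-treated cells received 25 nM panobinostat for 2 h, and untreated cells were left without it for the same 2 h. Each group had 3 libraries. Both groups grew on plate-bound anti-CD3 antibody (clone 145-2C11, 2.5 ug/mL) with IL-2 at 100 U/mL, so neither group is unstimulated. The mouse line, the Notch1 allele and the number of separate cultures or animals are not stated by the labels, so p-values measure only the spread between these libraries, which may be technical. Panobinostat inhibits histone deacetylases. Libraries were made from 100 ng of total RNA with a kit that reads the 3′ ends of mRNA, and levels are log2 CPM, the log2 of a gene's reads scaled to a common library total.

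Glycolysis splits glucose into pyruvate in the cytosol. Glucose enters through SLC2A (GLUT) transporters, and lactate dehydrogenase turns pyruvate into lactate, which leaves through SLC16A (MCT) transporters. The pentose phosphate pathway branches off at glucose-6-phosphate and makes NADPH and ribose-5-phosphate. HIF-1α is the oxygen-regulated subunit of a transcription factor that raises many glycolytic genes: with oxygen, EGLN prolyl hydroxylases mark it, VHL binds it and it is degraded. Activated T cells and T-ALL cells are known for a high rate of glycolysis.

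Of the 39 genes, 3 rose with panobinostat (7.7%) and 14 fell (35.9%), at a Benjamini-Hochberg adjusted p below 0.05 in limma. Among all genes tested, 19.2% rose and 19.0% fell, and 38.3% were called in either direction, against 43.6% of the 39. The groups did not overlap for 21 of the 39 genes (53.8%), a share near the 51.4% of all genes tested. The median log2 fold change (panobinostat minus untreated) was -0.23 over the 39 genes and -0.01 over all genes tested. Slc16a3, Egln2, Pfkl, Egln3, Hif1a and Eno1 fell by 0.70 to 1.44 on the log2 scale, and Slc16a1, Slc2a3 and Taldo1 rose by 0.24 to 0.78. In bulk RNA, fewer cells of a type and less RNA per cell cannot be told apart. Leaving out a library changed these counts: 9, 9 and 8 of the 39 fell on leaving out panobinostat library 1, 2 or 3, and 8 on leaving out untreated library 3, while 6 rose on leaving out untreated library 1. On leaving out panobinostat library 1 the median became -0.15, and on leaving out panobinostat library 3, 1582 of all genes tested rose, against 2416 with all libraries. The calls of Slc2a3, Slc16a1, Slc16a3, Gpi1, Pfkl, Aldoa, Hif1a, Egln2 and Egln3 held in every setting tried, 9 of the 17 calls.

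**Figure D1:**
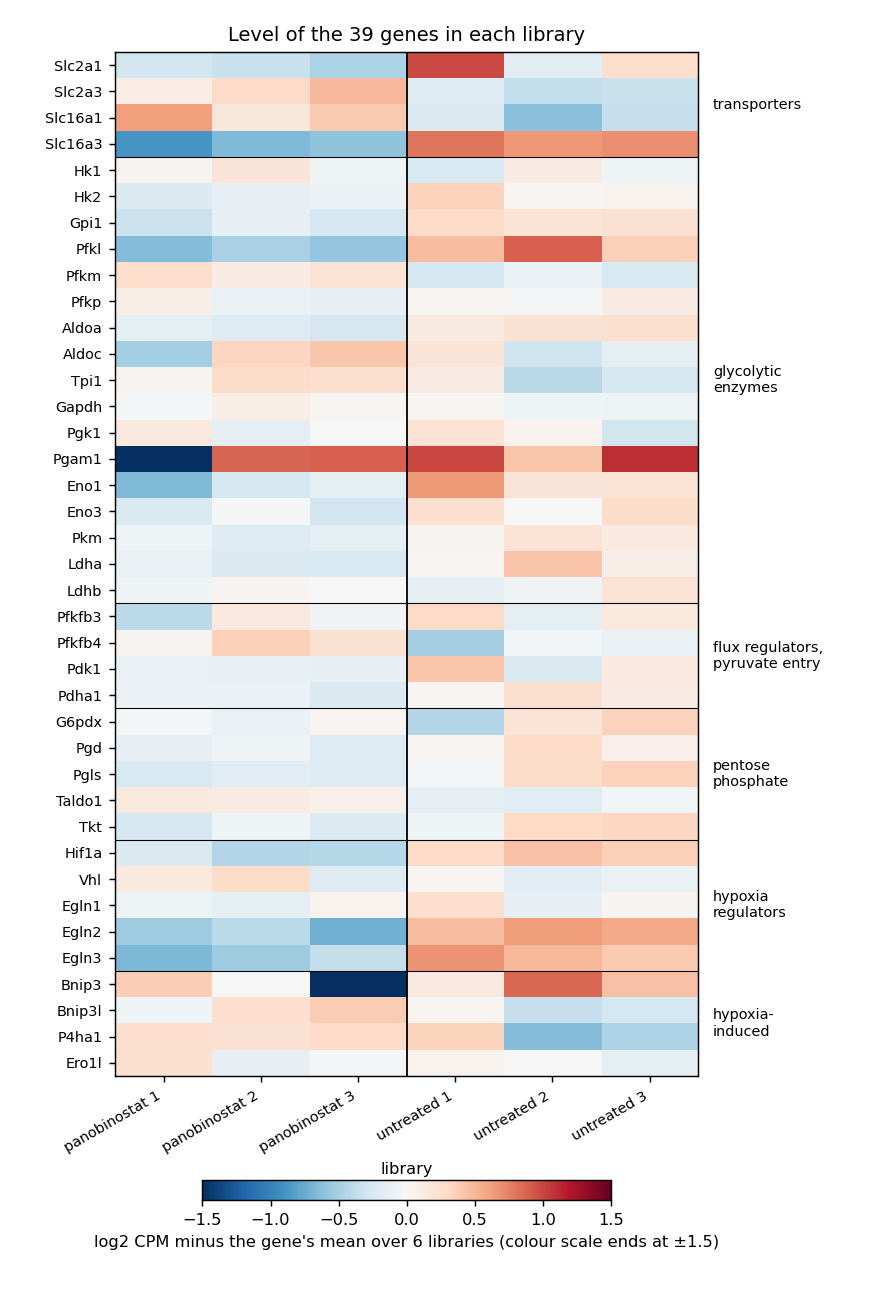
Level of the 39 genes in each of the 6 libraries, as log2 CPM minus the gene's mean over the 6 libraries; red is above and blue below that mean, and the colours stop at 1.5 on either side. Slc16a3, Pfkl, Egln2 and Egln3 are below their mean in the 3 panobinostat libraries and above it in the 3 untreated libraries, and Pgam1 is lowest in panobinostat library 1.

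Estimated depth was 6010000 to 7740000 reads per library. Correlations of log2 levels were 0.964 to 0.976 within groups and 0.923 to 0.947 between them. The labelled T cell identity was checked on a list of 18 T cell markers, of which 17 were in the table. They summed to 2660, 2820 and 2770 CPM in panobinostat libraries 1 to 3, against 3450, 3570 and 3650 CPM in untreated libraries 1 to 3. B cell markers (7 of 8 in the table) summed to 79.2 to 88.2 CPM with panobinostat and 96.6 to 101 CPM untreated. Myeloid markers (9 of 10) summed to 1070 to 1160 CPM with panobinostat and 1310 to 1480 CPM untreated. Erythroid markers (10 of 12) summed to 6370 to 6770 CPM with panobinostat and 6790 to 8060 CPM untreated. The erythroid marker Epor was near the floor, at -1.83 log2 CPM in untreated library 2. All 4 sums were lower in every panobinostat library than in every untreated library, but not every marker followed its sum. By single marker, all panobinostat libraries were below all untreated ones for 10 of 17 T cell, 2 of 7 B cell, 6 of 9 myeloid and 7 of 10 erythroid markers. They were above them for Tcf7 among the T cell markers and for Hbb-bs and Hbb-bt among the erythroid ones, and the rest overlapped. Among all genes tested, groups did not overlap for 51.4%, counting both directions together, so these counts are not read as a result about the markers. The part of these cell types in the falls of the 14 genes was not tested.

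The promoters of 4 genes that the results turn on are printed first, a transporter pair whose members moved in opposite directions and the 2 prolyl hydroxylases that fell. Each is the RefSeq window (GRCm38.p6) from 250 bases before to 50 bases after the transcript start, written 5′ to 3′ on the gene's strand. Capitals mark ACGTG or GCGTG on either strand (also read as CACGT or CACGC), the core letters of the hypoxia response element, and any CACGTG, the E-box, which contains ACGTG. The windows are chr11:120948817-120949116 (plus strand) for Slc16a3, chr3:104638414-104638713 (plus strand) for Slc16a1, chr7:27166753-27167052 (minus strand) for Egln2 and chr12:54203825-54204124 (minus strand) for Egln3.
Slc16a3: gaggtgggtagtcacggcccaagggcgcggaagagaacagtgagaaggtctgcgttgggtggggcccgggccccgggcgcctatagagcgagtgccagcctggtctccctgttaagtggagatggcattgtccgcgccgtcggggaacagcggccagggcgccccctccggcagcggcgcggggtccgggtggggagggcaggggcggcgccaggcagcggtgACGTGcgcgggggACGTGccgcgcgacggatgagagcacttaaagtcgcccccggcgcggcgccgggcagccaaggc
Slc16a1: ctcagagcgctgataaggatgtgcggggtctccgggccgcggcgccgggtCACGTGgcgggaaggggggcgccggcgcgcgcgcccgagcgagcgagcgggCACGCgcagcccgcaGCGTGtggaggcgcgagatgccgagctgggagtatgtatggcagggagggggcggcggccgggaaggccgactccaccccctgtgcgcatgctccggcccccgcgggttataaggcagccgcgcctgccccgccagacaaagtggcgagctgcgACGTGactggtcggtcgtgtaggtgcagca
Egln2: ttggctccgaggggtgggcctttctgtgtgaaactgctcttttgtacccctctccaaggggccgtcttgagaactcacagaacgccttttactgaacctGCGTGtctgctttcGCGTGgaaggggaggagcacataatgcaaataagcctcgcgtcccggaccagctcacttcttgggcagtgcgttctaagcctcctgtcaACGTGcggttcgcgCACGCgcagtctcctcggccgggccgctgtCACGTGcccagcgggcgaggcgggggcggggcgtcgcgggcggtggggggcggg
Egln3: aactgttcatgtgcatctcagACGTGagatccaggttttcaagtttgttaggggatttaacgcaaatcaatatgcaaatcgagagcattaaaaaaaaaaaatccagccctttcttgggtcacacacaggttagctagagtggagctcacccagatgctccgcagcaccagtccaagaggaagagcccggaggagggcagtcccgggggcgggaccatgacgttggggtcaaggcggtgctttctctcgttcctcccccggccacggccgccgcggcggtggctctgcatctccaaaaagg

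The Slc16a3 window held 2 matches of the core letters, Slc16a1 5, this Egln2 window 6 and Egln3 1, and the Slc16a1 and Egln2 windows each held 1 E-box. An E-box holds the core letters on either strand, so it was counted as 2 of the matches of its window. Of the 39 genes, 37 had a promoter in the RefSeq table; Slc2a3 and Bnip3l had no entry. The core letters lay in a window of 34 of the 37 (91.9%), against 46.7% of all 27025 genes in that table and 68.5% of the 8563 tested genes with a window. The E-box lay in 7 of the 37 (18.9%), against 8.1% of all genes in the table and 12% of the tested genes. A gene with several windows counted when any of them held the letters. By window, the core letters lay in 82.7% of 52 windows of these genes and 62.6% of 10902 windows of tested genes. For the E-box these shares were 13.5% and 10.1%. The windows were not matched for their content of C and G. By call, the core letters were present in 13 of 14 genes that fell, 2 of 2 that rose and 19 of 21 that were not called. A match describes letters in a window and is not a bound site.

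Counts in this and the following lists stand beside 19.2% that rose and 19.0% that fell among all genes tested, and several lists are small. Among the 4 transporters, 2 rose and 1 fell, and their median log2 fold change was -0.07. On leaving out a library this median ran from -0.23 (without untreated library 2) to 0.11 (without untreated library 1). Slc16a3 (chr11:120948480-120960868, plus strand) encodes MCT4, which exports lactate. It stood at 4.57, 4.80 and 4.85 log2 CPM in panobinostat libraries 1 to 3 and at 6.26, 6.11 and 6.15 log2 CPM in untreated libraries 1 to 3. The groups were far apart, with more than 1 log2 unit between the highest panobinostat and the lowest untreated library. Slc16a3 fell by 1.44 on the log2 scale (SE 0.11, adjusted p = 0.000242, limma), or to 0.37 of the untreated level. Slc16a1 (chr3:104638668-104658462, plus strand) encodes MCT1, which moves lactate and pyruvate in either direction. Its levels were 7.56, 7.12 and 7.34 log2 CPM with panobinostat and 6.73, 6.32 and 6.6 log2 CPM untreated. Here every panobinostat library was the higher, and Slc16a1 rose 1.72-fold (log2 fold change 0.78, SE 0.14, adjusted p = 0.00467, limma).

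The share of Slc16a3 in the reads of these 2 lactate transporter genes was 11.2%, 16.6% and 15.2% in panobinostat libraries and 41.9%, 46.4% and 42.2% in untreated libraries. Reads at 3′ ends do not scale with transcript length, so the share can be read between the genes as far as their 3′ ends were captured alike. The sum of the pair was 212, 167 and 190 CPM with panobinostat and 183, 149 and 168 CPM untreated, and these groups overlapped.

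Slc2a3 (chr6:122727809-122801640, minus strand) encodes GLUT3, a glucose transporter of high affinity. It was measured at 5.19, 5.36 and 5.56 log2 CPM with panobinostat and 4.90, 4.71 and 4.75 log2 CPM untreated. All panobinostat libraries lay above all untreated ones, and Slc2a3 rose 1.49-fold (log2 fold change 0.58, SE 0.12, adjusted p = 0.00846, limma). Slc2a1 encodes GLUT1, the widespread basal glucose transporter. It had 2.34, 2.28 and 2.14 log2 CPM with panobinostat and 3.61, 2.45 and 2.88 log2 CPM untreated. The groups did not overlap, but the untreated libraries were spread over more than 1 log2 unit, and Slc2a1 did not pass (log2 fold change -0.73, 95% interval -1.40 to -0.05, adjusted p = 0.0838, limma). Its value rested on the untreated libraries: without library 1 the log2 fold change was -0.41 (adjusted p = 0.176, limma), and without library 2 it was -0.99 and passed (adjusted p = 0.029, limma). Depth was low here, at an estimated 30 to 34 reads per panobinostat library and 37 to 94 per untreated library. The share of Slc2a1 in the reads of both glucose transporters was 12.2%, 10.6% and 8.6% with panobinostat and 29.0%, 17.3% and 21.5% untreated.

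**Figure D2:**
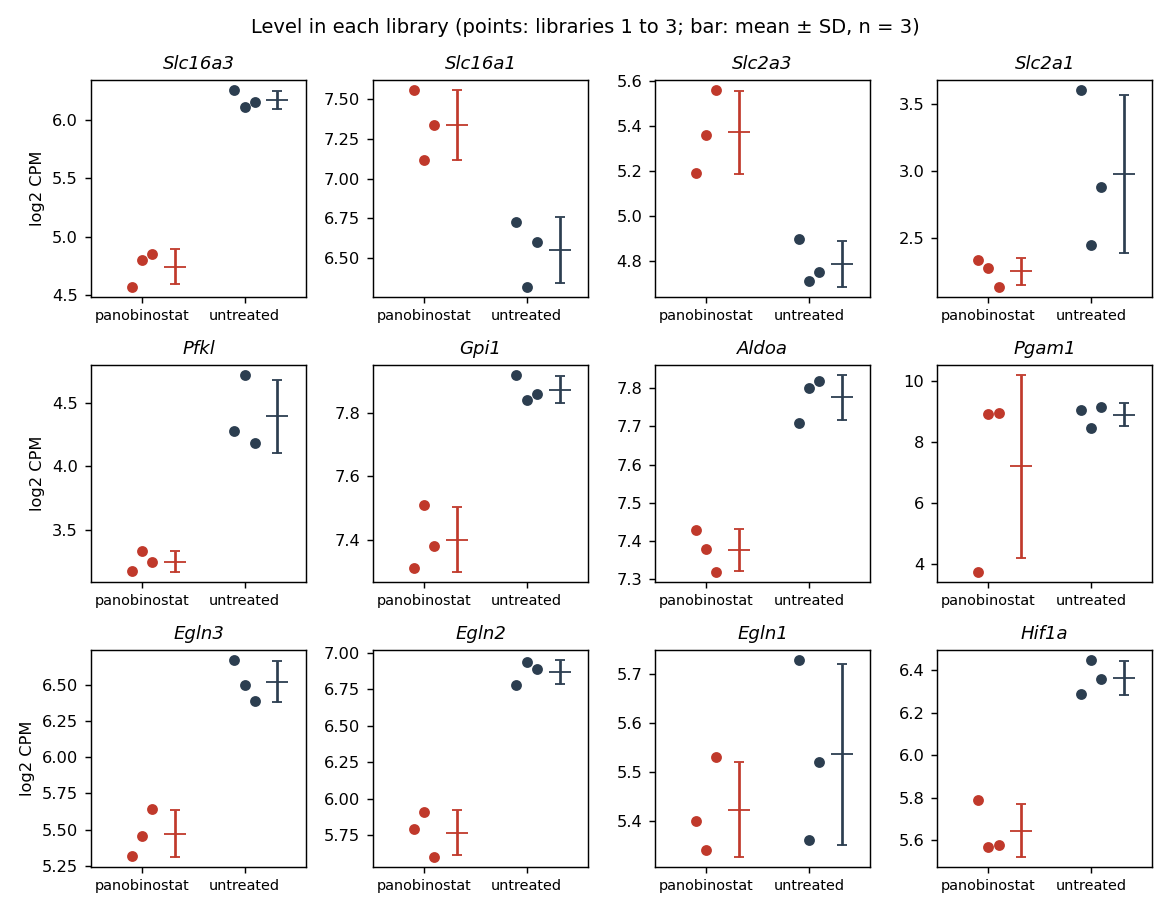
Level (log2 CPM) of 12 genes in each library, with each panel on its own scale; points are libraries 1 to 3, and bars the mean ± SD of 3 libraries. Panobinostat libraries lie below untreated ones for Slc16a3, Slc2a1, Pfkl, Gpi1, Aldoa, Egln3, Egln2 and Hif1a and above them for Slc16a1 and Slc2a3, while Egln1 overlaps and Pgam1 has a lone low library at 3.76.

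Of the 17 glycolytic enzyme genes, 6 fell, none rose and 11 were not called. Their median log2 fold change was -0.27; it was -0.15 without panobinostat library 1. All 17 summed to 1943, 2381 and 2380 CPM in panobinostat libraries and 2817, 2737 and 2758 CPM in untreated libraries. Pgam1, very low in panobinostat library 1, was then left out with its values known. Without Pgam1, the 16 others summed to 1930, 1892 and 1883 CPM in panobinostat libraries and 2284, 2379 and 2180 CPM in untreated libraries. Every panobinostat sum was below every untreated one, but the sum holds the called genes. The 6 genes that fell summed to 1166, 1150 and 1143 CPM with panobinostat and 1480, 1636 and 1478 CPM untreated, and the 10 others to 763, 742 and 740 CPM with panobinostat and 804, 744 and 702 CPM untreated, with overlap. The 6 were picked by their calls in these same libraries, so the lower sum of the 6 follows from that choice and adds no support.

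Glucose is first phosphorylated by hexokinase. Hk1 was at 6.93, 7.08 and 6.83 log2 CPM with panobinostat and 6.66, 7.01 and 6.83 log2 CPM untreated, groups that overlapped. Hk2, the inducible form, was at 6.61, 6.71 and 6.74 log2 CPM with panobinostat and 7.18, 6.86 and 6.89 log2 CPM untreated. These groups did not overlap, yet Hk2 missed the threshold (log2 fold change -0.29, 95% interval -0.53 to -0.05, adjusted p = 0.0565, limma) and its value was -0.19 without untreated library 1 (adjusted p = 0.0829, limma) and -0.35 without untreated library 2, where it passed (adjusted p = 0.0485, limma). Gpi1 encodes glucose-6-phosphate isomerase, which makes fructose-6-phosphate. It had 7.31, 7.51 and 7.38 log2 CPM with panobinostat and 7.92, 7.84 and 7.86 log2 CPM untreated. Gpi1 fell to 0.722 of the untreated level (log2 fold change -0.47, SE 0.08, adjusted p = 0.00322, limma), with every panobinostat library below every untreated one. The last 500 bases of its transcript share runs of 50 bases with 50 other genes, 31 of them in the table, so reads there may be split or lost in counting.

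Phosphofructokinase makes the committed step of glycolysis, and its 3 subunit genes did not move alike. Pfkl (chr10:77986947-78010083, minus strand), the liver-type subunit, was at 3.17, 3.33 and 3.24 log2 CPM with panobinostat and 4.28, 4.72 and 4.18 log2 CPM untreated. The panobinostat libraries lay close together and well below the untreated ones. Pfkl fell by 1.15 on the log2 scale (SE 0.17, adjusted p = 0.00205, limma), to 0.451 of the untreated level. Pfkm, the muscle-type subunit, had 2.89, 2.75 and 2.83 log2 CPM with panobinostat and 2.36, 2.53 and 2.40 log2 CPM untreated. Its groups did not overlap either, in the opposite direction, but it was not called (log2 fold change 0.39, 95% interval 0.02 to 0.77, adjusted p = 0.0903, limma). Pfkp, the platelet-type subunit, had 6.37, 6.17 and 6.15 log2 CPM with panobinostat and 6.30, 6.24 and 6.40 log2 CPM untreated, which overlapped. Pfkp made up 83.5%, 81.1% and 81.1% of the reads of the 3 genes with panobinostat and 76.2%, 70.1% and 78.3% untreated. The share of Pfkl was 9.1%, 11.3% and 10.8% with panobinostat and 18.8%, 24.5% and 16.9% untreated, so the subunit that fell was a minor part of the reads in both groups.

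Aldolase splits fructose-1,6-bisphosphate into triose phosphates. Aldoa had 7.43, 7.38 and 7.32 log2 CPM with panobinostat and 7.71, 7.80 and 7.82 log2 CPM untreated. It fell to 0.757 of the untreated level (log2 fold change -0.40, SE 0.07, adjusted p = 0.00441, limma), without overlap of the groups. In the annotation (GENCODE M21) the symbol Aldoa stands for 2 adjoining genes, and which of them the table counts is not stated. Aldoc, the brain-type aldolase, was scarce, at 0.93, 1.77 and 1.86 log2 CPM with panobinostat and 1.64, 1.15 and 1.31 log2 CPM untreated, and was not called.

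No gene of the next steps was called with all libraries. Tpi1, triose phosphate isomerase, had 6.08, 6.31 and 6.28 log2 CPM with panobinostat and 6.16, 5.62 and 5.77 log2 CPM untreated. The groups overlapped through untreated library 1 (log2 fold change 0.37, adjusted p = 0.0799, limma), and without that library Tpi1 passed (0.53, adjusted p = 0.00671, limma). Gapdh, glyceraldehyde-3-phosphate dehydrogenase, was at 6.05, 6.16 and 6.10 log2 CPM with panobinostat and 6.09, 6.0 and 5.99 log2 CPM untreated. Its log2 fold change was 0.08 with a 95% interval of -0.10 to 0.26, but its transcript end shares runs of 50 bases with 138 other annotated genes. Pgk1, phosphoglycerate kinase, which makes ATP, had 8.10, 7.80 and 7.95 log2 CPM with panobinostat and 8.17, 8.01 and 7.68 log2 CPM untreated (log2 fold change -0.01, 95% interval -0.32 to 0.31, limma). Its sum with the near copies Pgk1-rs7 and Gm5537 was 376, 623 and 417 CPM with panobinostat and 365, 305 and 555 CPM untreated, also with overlap. The 2 copies had nearly equal levels in each library, such as 7.65 and 7.64 log2 CPM in panobinostat library 2. The sum may therefore hold the same reads under both names, which was not tested.

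Pgam1, phosphoglycerate mutase, was decided by a lone library. It had 3.76, 8.93 and 8.96 log2 CPM with panobinostat and 9.06, 8.48 and 9.17 log2 CPM untreated. Panobinostat library 1 was more than 4 log2 units below the other 5, an estimated 81 reads where those held 2412 to 4121. The log2 fold change was -1.69 (SE 1.25, adjusted p = 0.317, limma) with that library and 0.04 (adjusted p = 0.895, limma) without it. A gap of over 4 log2 units between a lone library and the 5 others occurred for 10 of the 12554 genes tested, 2 of them low in panobinostat library 1.

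Enolase makes phosphoenolpyruvate. Eno1 had 6.34, 6.75 and 6.87 log2 CPM with panobinostat and 7.64, 7.19 and 7.21 log2 CPM untreated. It fell to 0.617 of the untreated level (log2 fold change -0.70, SE 0.17, adjusted p = 0.0151, limma), with no overlap. Summed with Eno1b and Gm4735, which share its transcript end and may take its reads, the groups overlapped, at 105, 163 and 123 CPM with panobinostat and 261, 161 and 168 CPM untreated. Eno3, the muscle-type enolase, was at 2.65, 2.83 and 2.58 log2 CPM with panobinostat and 3.12, 2.86 and 3.14 log2 CPM untreated; it was not called (adjusted p = 0.132, limma).

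Pkm encodes the pyruvate kinase of most adult tissues and of proliferating cells. It was at 8.07, 7.94 and 8.0 log2 CPM with panobinostat and 8.18, 8.35 and 8.29 log2 CPM untreated, and fell to 0.83 of the untreated level (log2 fold change -0.27, SE 0.08, adjusted p = 0.0255, limma). Reads at the transcript end do not tell its spliced forms apart. Ldha, the lactate dehydrogenase subunit that prevails in glycolytic cells, was at 8.89, 8.78 and 8.77 log2 CPM with panobinostat and 9.02, 9.42 and 9.08 log2 CPM untreated. Ldha fell to 0.778 of the untreated level (log2 fold change -0.36, SE 0.11, adjusted p = 0.0354, limma). Neither gene's groups overlapped, but both calls were close to the threshold. Pkm did not pass when panobinostat library 2 or 3, or untreated library 2 or 3, was left out (log2 fold changes -0.23 to -0.27), nor did Ldha when panobinostat library 1, 2 or 3, or untreated library 3, was left out (-0.34 to -0.41). Without untreated library 2, which stood highest, the log2 fold change of Ldha was -0.24 (adjusted p = 0.0482, limma). Ldhb, the heart-type subunit, was at 5.20, 5.30 and 5.25 log2 CPM with panobinostat and 5.13, 5.21 and 5.48 log2 CPM untreated, with overlap (log2 fold change -0.02, 95% interval -0.29 to 0.24, limma).

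**Figure D3:**
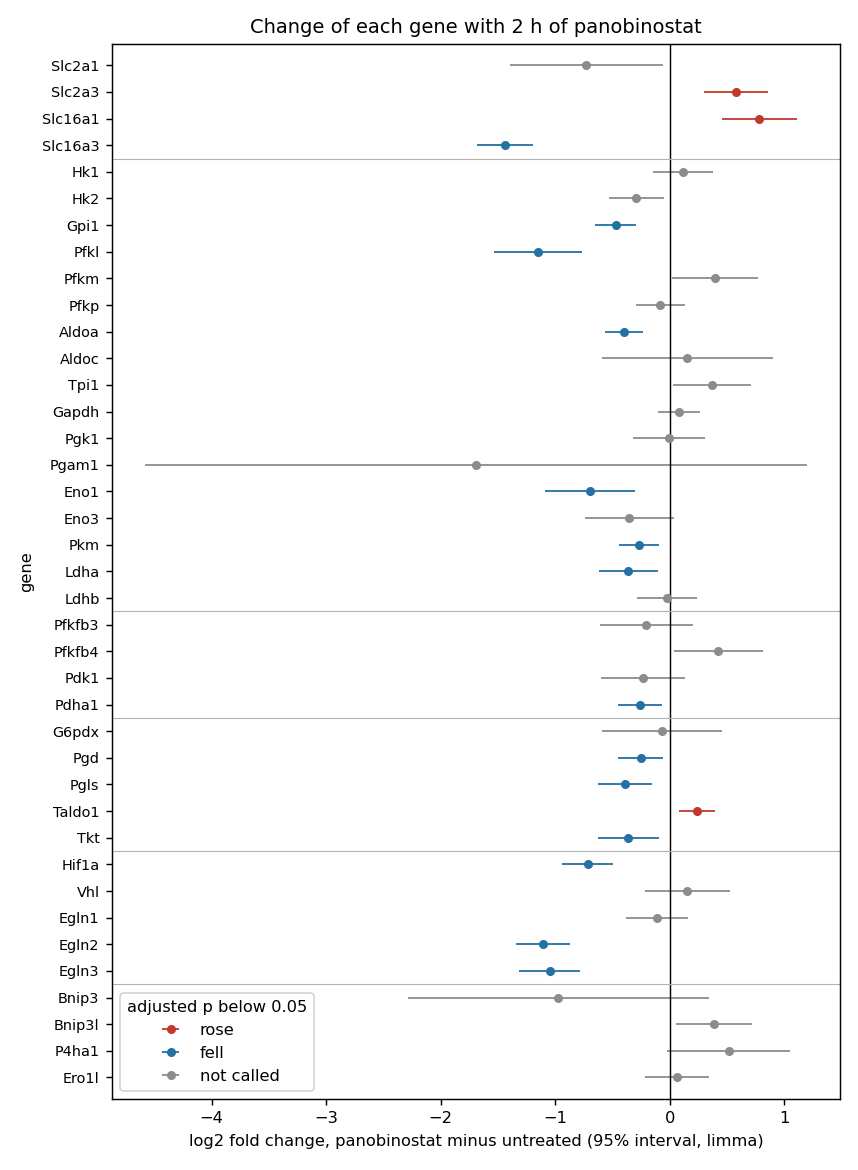
Log2 fold change (panobinostat minus untreated) of each of the 39 genes with its 95% interval from limma, 3 libraries per group, in order of role; red genes rose, blue genes fell and grey genes were not called. Among called genes, Slc16a3, Pfkl, Egln2 and Egln3 lie below -1. Pgam1, which was not called, lies lowest (-1.69) and has the widest interval.

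Of the 4 genes of flux control and pyruvate entry, 1 fell; their median log2 fold change was -0.22, and -0.10 without untreated library 1. Pfkfb3 and Pfkfb4 encode the enzymes that make and break fructose-2,6-bisphosphate, the activator of phosphofructokinase. Pfkfb3 had 4.12, 4.66 and 4.47 log2 CPM with panobinostat and 4.81, 4.37 and 4.68 log2 CPM untreated, with overlap. Pfkfb4 had 3.82, 4.14 and 4.01 log2 CPM with panobinostat and 3.28, 3.74 and 3.68 log2 CPM untreated. Its groups did not overlap, but it was not called (log2 fold change 0.42, 95% interval 0.04 to 0.81, adjusted p = 0.0813, limma), and the value was 0.28 without untreated library 1 (adjusted p = 0.165, limma). Pdk1, a kinase that shuts the pyruvate dehydrogenase complex, had 4.60, 4.59 and 4.58 log2 CPM with panobinostat and 5.12, 4.49 and 4.85 log2 CPM untreated, and the untreated libraries alone were spread. Pdha1, the catalytic subunit of that complex and the target of Pdk1, had 7.62, 7.62 and 7.49 log2 CPM with panobinostat and 7.73, 7.94 and 7.83 log2 CPM untreated. Pdha1 fell to 0.837 of the untreated level (log2 fold change -0.26, SE 0.08, adjusted p = 0.0407, limma). It did not pass when panobinostat library 1, 2 or 3, or untreated library 2 or 3, was left out (-0.20 to -0.28).

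Of the 5 pentose phosphate genes, 3 fell and 1 rose, with a median log2 fold change of -0.25. G6pdx, glucose-6-phosphate dehydrogenase, which opens the pathway, had 2.94, 2.88 and 3.0 log2 CPM with panobinostat and 2.53, 3.18 and 3.32 log2 CPM untreated. The panobinostat libraries sat within the untreated range (log2 fold change -0.07, 95% interval -0.59 to 0.45, limma). Pgls, the lactonase of the next step, had 7.96, 8.03 and 7.99 log2 CPM with panobinostat and 8.16, 8.46 and 8.53 log2 CPM untreated. It fell to 0.763 of the untreated level (log2 fold change -0.39, SE 0.10, adjusted p = 0.0191, limma). Pgd, 6-phosphogluconate dehydrogenase, had 7.73, 7.77 and 7.66 log2 CPM with panobinostat and 7.88, 8.13 and 7.92 log2 CPM untreated, and fell to 0.838 (-0.25, SE 0.09, adjusted p = 0.0482, limma). For both genes the panobinostat libraries lay below the untreated ones by a narrow margin.

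Transaldolase and transketolase shuttle carbons between pentoses and glycolytic sugars, and their genes moved in opposite directions. Taldo1 had 8.49, 8.46 and 8.41 log2 CPM with panobinostat and 8.19, 8.16 and 8.29 log2 CPM untreated, and rose 1.18-fold (log2 fold change 0.24, SE 0.07, adjusted p = 0.0276, limma). Tkt had 7.91, 8.11 and 7.97 log2 CPM with panobinostat and 8.11, 8.48 and 8.49 log2 CPM untreated, and fell to 0.779 (-0.36, SE 0.12, adjusted p = 0.0426, limma). Tkt was the called gene whose groups touched, at 8.11 in panobinostat library 2 and untreated library 1. All 4 calls of this pathway depended on which libraries were included. When panobinostat library 1 or 3, or untreated library 2, was left out, Pgls (-0.35 to -0.39), Pgd (-0.18 to -0.26), Taldo1 (0.21 to 0.26) and Tkt (-0.30 to -0.34) no longer passed. Leaving out panobinostat library 2 ended the calls of Pgd (-0.28), Taldo1 (0.24) and Tkt (-0.42), and leaving out untreated library 3 those of Pgls (-0.32), Pgd (-0.28) and Tkt (-0.29).

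Of the 5 hypoxia regulators, 3 fell and none rose, against 19.0% and 19.2% of all genes tested, with a median log2 fold change of -0.72. Hif1a (chr12:73901375-73947530, plus strand) had 5.79, 5.57 and 5.58 log2 CPM with panobinostat and 6.29, 6.45 and 6.36 log2 CPM untreated. Both groups were tight and apart, and Hif1a fell to 0.608 of the untreated level (log2 fold change -0.72, SE 0.10, adjusted p = 0.00158, limma). Egln2 (chr7:27158658-27166802, minus strand), which encodes the prolyl hydroxylase PHD1, had 5.79, 5.91 and 5.60 log2 CPM with panobinostat and 6.78, 6.94 and 6.89 log2 CPM untreated. Egln2 fell by 1.10 on the log2 scale (SE 0.10, adjusted p = 0.000425, limma), to 0.466 of the untreated level. Egln3 (chr12:54178981-54203860, minus strand), which encodes PHD3 and is itself a known HIF target, had 5.32, 5.46 and 5.64 log2 CPM with panobinostat and 6.67, 6.50 and 6.39 log2 CPM untreated. Egln3 fell by 1.05 (SE 0.11, adjusted p = 0.000745, limma), to 0.483. For both hydroxylases every panobinostat library lay below every untreated library by more than 0.7 log2 units.

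Egln1, which encodes PHD2, the main HIF hydroxylase in most normoxic cells, had 5.40, 5.34 and 5.53 log2 CPM with panobinostat and 5.73, 5.36 and 5.52 log2 CPM untreated. The groups overlapped, and the log2 fold change was -0.11 with a 95% interval of -0.38 to 0.16. The 3 hydroxylase genes summed to 138, 144 and 145 CPM with panobinostat and 265, 254 and 248 CPM untreated. Within that sum the share of Egln1 averaged 30.2% over the panobinostat libraries and 18.2% over the untreated ones. Egln2 and Egln3 were called in these same libraries, so the lower sum and the higher Egln1 share follow from their falls and add no support. Vhl, the substrate receptor of the ubiquitin ligase that degrades HIF-1α, had 3.78, 3.91 and 3.44 log2 CPM with panobinostat and 3.66, 3.47 and 3.53 log2 CPM untreated, with overlap. Whether the counting used strand is not stated. The 3′ ends of Hif1a and Egln2 overlap the opposite-strand genes Gm15283 and Cyp2t4, as those of Aldoa and Pdha1 overlap Fam57b and Map3k15, so reads of these partners could not be told apart without strand. Hif1a also overlaps Gm49321 on its own strand, where strand does not help.

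None of the 4 hypoxia-induced genes was called, and their median log2 fold change was 0.23. Bnip3 and Bnip3l encode mitophagy receptors of the BCL2 family. Bnip3 was near the floor, at 1.41, 1.04 and -0.79 log2 CPM with panobinostat and 1.18, 1.9 and 1.48 log2 CPM untreated, and an estimated 4 reads stood behind panobinostat library 3. Bnip3l had 6.24, 6.54 and 6.67 log2 CPM with panobinostat and 6.32, 5.94 and 6.02 log2 CPM untreated. Its groups overlapped through untreated library 1 (log2 fold change 0.39, adjusted p = 0.0644, limma); it passed without that library (0.50, adjusted p = 0.0199, limma) and without panobinostat library 1 (0.51, adjusted p = 0.0332, limma). P4ha1, a collagen prolyl hydroxylase subunit, had 5.60, 5.58 and 5.64 log2 CPM with panobinostat and 5.68, 4.70 and 4.89 log2 CPM untreated. Panobinostat libraries were close together, while untreated library 1 stood apart from the other 2, and without it P4ha1 passed (0.81, adjusted p = 0.00117, limma; 0.52, adjusted p = 0.115 with all libraries). Without untreated library 2 it was 0.32 (adjusted p = 0.299, limma). Ero1l, an oxidase of the endoplasmic reticulum, had 5.39, 5.03 and 5.13 log2 CPM with panobinostat and 5.21, 5.14 and 5.01 log2 CPM untreated, with overlap.

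Partner genes were compared within each library for 16 pairs, as the log2 level of the one minus that of the other. With 3 libraries against 3 the smallest two-sided exact permutation p is 0.1, so no pair could pass 0.05. The 9 pairs without overlap reached it, each 0.178 after adjustment over the 16 pairs. No share over all gene pairs was computed. For single genes, groups did not overlap for 51.4% of all genes tested, so 9 of 16 pairs is not read as a result about these pairs. Slc16a3 minus Slc16a1 was -2.99, -2.32 and -2.48 with panobinostat and -0.47, -0.21 and -0.45 untreated, a change of -2.22. Pfkl minus Pfkm was 0.28, 0.58 and 0.42 with panobinostat and 1.92, 2.19 and 1.79 untreated, a change of -1.54, and Pfkl minus Pfkp changed by -1.07. Among pairs whose groups were apart, the shifts against Slc16a1 and against Pfkm were the largest. Slc2a3 minus Slc2a1 was 2.85, 3.07 and 3.41 with panobinostat and 1.29, 2.26 and 1.87 untreated, a change of 1.31. Against Egln1, Egln2 changed by -0.99 and Egln3 by -0.94. Pfkfb4 minus Pfkfb3 changed by 0.63, Taldo1 minus Tkt by 0.60 and Pfkm minus Pfkp by 0.47. The other 7 pairs overlapped between groups, among them Ldhb minus Ldha (0.34), Hk2 minus Hk1 (-0.41) and Bnip3 minus Bnip3l (-1.36). The last overlapped through panobinostat library 1 (-4.83) and untreated library 1 (-5.14), and without the low panobinostat library 3 (-7.46) its change was -0.60.

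**Figure D4:**
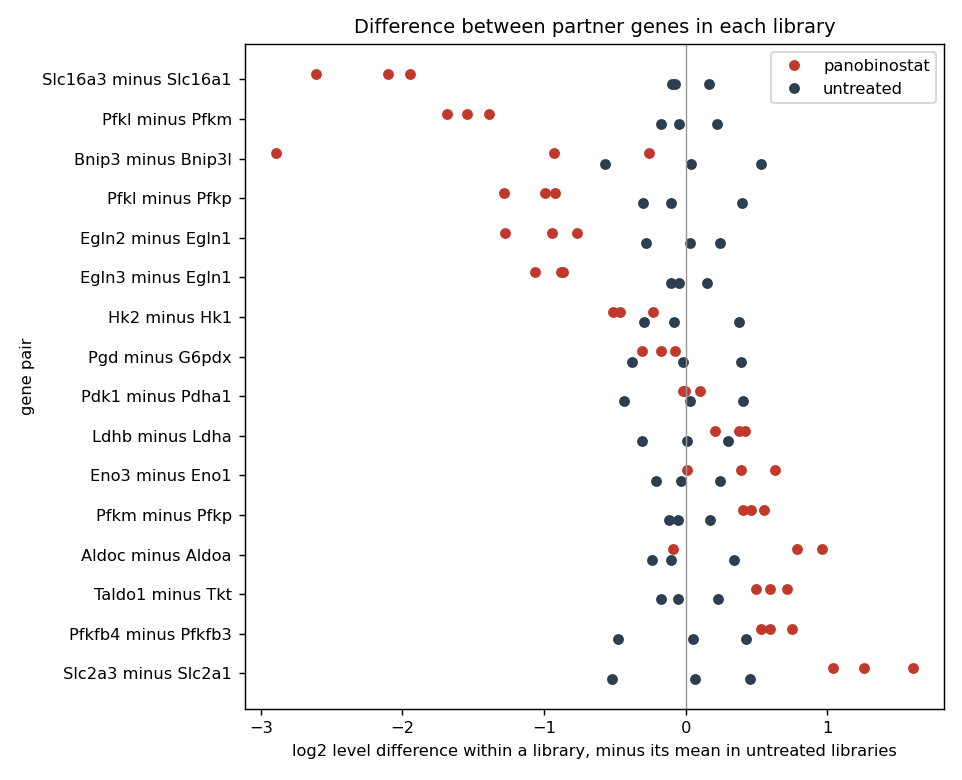
Difference in log2 level between partner genes within each library, shown minus the mean of the 3 untreated libraries; red points are panobinostat and dark points untreated libraries. Slc16a3 minus Slc16a1 lies farthest to the left without overlap (change -2.22), and Slc2a3 minus Slc2a1 farthest to the right (1.31).

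Further genes of the same pathways were counted in lists made with earlier results of these data known. Their counts also stand beside 19.2% that rose and 19.0% that fell among all genes tested. Of the other glycolytic enzymes and sugar transporters, 15 of 24 were tested, 6 rose and 1 fell, with a median log2 fold change of 0.45. Eno2, the neuronal enolase, had 2.34, 1.69 and 2.02 log2 CPM with panobinostat and -0.39, -1.22 and 0.65 log2 CPM untreated, and rose by 2.33 (SE 0.49, adjusted p = 0.00828, limma). Slc2a4, the insulin-responsive glucose transporter GLUT4, rose by 1.43 (SE 0.24, adjusted p = 0.00342, limma), and Adpgk, an ADP-dependent glucokinase, by 1.01 (SE 0.18, adjusted p = 0.0041, limma). Pgm2, of the phosphoglucomutase family, fell by 0.84 (SE 0.10, adjusted p = 0.00106, limma). Eno2 and Slc2a4 were scarce, below 3 log2 CPM in every library.

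Of the other genes of flux control and pyruvate entry, 11 of 15 were tested, 4 rose and none fell (median 0.13, and 0.05 to 0.09 without untreated library 1, 2 or 3). Dlat and Pdhb, subunits of the pyruvate dehydrogenase complex, rose by 0.71 (SE 0.12, adjusted p = 0.00416, limma) and 0.34 (SE 0.07, adjusted p = 0.01, limma), unlike Pdha1, which fell. Pdp1, the phosphatase that opens the complex, rose by 0.67 (adjusted p = 0.0266, limma) and Tigar, a fructose-2,6-bisphosphatase, by 0.50 (adjusted p = 0.0363, limma). Of the other pentose phosphate genes, 8 of 9 were tested, 3 rose and none fell (median 0.08, 0.05 without panobinostat library 1 and 0.13 to 0.14 without panobinostat library 2 or untreated library 3). These were Rpe, an epimerase of the pathway (0.39, adjusted p = 0.0193), Shpk, sedoheptulokinase (1.5, adjusted p = 0.0236), and Rbks, ribokinase (1.26, adjusted p = 0.0311, all limma). Shpk and Rbks rested on few reads. Shpk had an estimated 11, 14 and 24 reads with panobinostat and 9, 5 and 4 untreated, and Rbks 34, 26 and 24 with panobinostat and 14, 17 and 7 untreated. Pdp1, Tigar, Rpe, Shpk and Rbks did not pass when certain libraries were left out, with log2 fold changes of 0.55 to 0.69 for Pdp1 (panobinostat 1 or 2, untreated 2 or 3), 0.42 to 0.55 for Tigar (panobinostat 1, 2 or 3, untreated 1 or 3) and 0.35 to 0.39 for Rpe (panobinostat 2 or 3, untreated 3). For Shpk they were 1.26 to 1.56 (panobinostat 2 or 3, untreated 2 or 3), and for Rbks 0.96 to 1.29 (panobinostat 1 or 2, untreated 1 or 3).

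Among the other hypoxia regulators, 12 of 17 were tested and 1 rose, Cul2, the scaffold of the VHL ubiquitin ligase (0.34, SE 0.11, adjusted p = 0.0426, limma). Cul2 did not pass when panobinostat library 1, 2 or 3, or untreated library 2 or 3, was left out (0.27 to 0.36). Among the other hypoxia-induced genes, 21 of 26 were tested, 5 fell and 1 rose, with a median of -0.16, -0.27 without untreated library 2 and -0.10 without untreated library 3. Ankrd37, an ankyrin repeat gene known as a HIF target, had 1.72, 2.11 and 1.97 log2 CPM with panobinostat and 4.33, 3.89 and 3.72 log2 CPM untreated, and fell by 2.05 (SE 0.21, adjusted p = 0.000606, limma). Hilpda, which coats lipid droplets, had 7.44, 7.55 and 7.42 log2 CPM with panobinostat and 8.46, 8.38 and 8.54 log2 CPM untreated, and fell by 0.99 (SE 0.08, adjusted p = 0.000253, limma). Gys1, glycogen synthase, fell by 1.09 (SE 0.13, adjusted p = 0.00099, limma). Ndrg1, a stress-induced gene, rose by 0.78 (SE 0.10, adjusted p = 0.00144, limma). The hypoxia-induced genes therefore held calls in both directions.

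Pyruvate that enters mitochondria feeds the tricarboxylic acid cycle. The list of 21 genes for this step, all tested, also holds genes outside the mitochondrial cycle: the cytosolic counterparts Aco1, Idh1 and Mdh1 and the malic enzyme Me2. Of the 21, 11 rose and 1 fell, against 19.2% and 19.0% of all genes tested, with a median log2 fold change of 0.31. Leaving out those 4 after their values were seen, 8 of 17 rose and 1 fell (median 0.30). Fh1, fumarate hydratase, rose by 1.27 (SE 0.23, adjusted p = 0.00453, limma), Sdhc, a succinate dehydrogenase subunit, by 1.18 (SE 0.19, adjusted p = 0.0028, limma), and Idh1, the cytosolic isocitrate dehydrogenase, by 0.98 (SE 0.17, adjusted p = 0.00395, limma). Idh3g, a subunit of the mitochondrial NAD-linked isocitrate dehydrogenase, fell by 0.73 (SE 0.10, adjusted p = 0.00195, limma). Txnip, whose protein limits glucose uptake, was at 6.41, 6.31 and 6.88 log2 CPM with panobinostat and 4.77, 3.24 and 3.55 log2 CPM untreated, and rose by 2.68 (SE 0.37, adjusted p = 0.00171, limma).

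**Figure D5:**
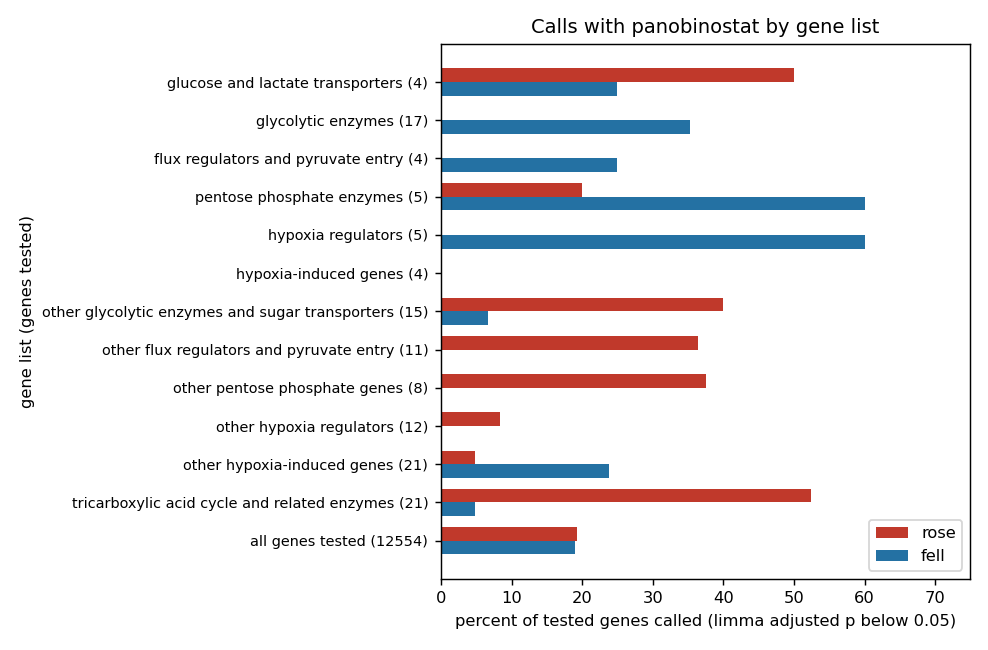
Percent of tested genes that rose (red) and fell (blue) with panobinostat in each gene list and, at the bottom, among all 12554 genes tested, with the number tested beside each name. Glycolytic enzymes and hypoxia regulators hold falls and no rises (6 of 17 and 3 of 5 fell), while 11 of 21 genes of the tricarboxylic acid cycle and related enzymes rose, 3 of them outside the mitochondrial cycle.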

How the data were processed

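RNA of 3 panobinostat and 3 untreated libraries was read at transcript 3′ ends. The deposited table holds log2 values per gene and library. From the values they are log2 CPM made alike between libraries (each sums to 994114 to 994182 CPM, medians 4.01 to 4.02), an inference, since no header states the unit. Such scaling hides a change in total mRNA per cell. Per the submitters' processing notes, cutadapt 1.9, HISAT2 2.1.0, featureCounts (Subread 1.5.0), limma and build mm10 were used; annotation, strand setting and filters are not given in the sources used here. Depth was estimated from ties between low values.

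Groups were compared in limma 3.58.1 (R 4.3.3; linear model, mean-variance trend) over 12554 genes, leaving out 631 whose mean log2 value was under 0; p-values were adjusted by Benjamini-Hochberg and called below 0.05. The code was tested on simulated data. All 39 genes are named, and of each further list the called genes up to the 4 with the smallest adjusted p, besides Txnip. The members and lists were chosen with earlier results of these data known. Partner genes were compared by exact two-sided permutation. Positions are from GENCODE M21 (mm10), promoters from RefSeq (GRCm38.p6).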

Additional observations from a re-analysis of the deposited data

How the results depend on the processing

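No filter, a stricter filter (mean log2 of at least 2), a pseudocount of 1, trimmed mean scaling and a repeated quantile normalization changed no call of the 39 genes, though the stricter filter left 2 of them untested. A robust spread gave 5 genes of the 39 that rose, and sample weights 6. Without the mean-variance trend 8 fell, and at a threshold of 0.01 7 fell; at 0.01, 1240 of all genes tested rose and 1273 fell. Library numbers did not pair the samples (correlations of deviations between same-numbered libraries -0.04, 0.10 and -0.01); with the replicate block, 2 of the 39 rose and 10 fell. The cause of these shifts was not tested, apart from the stricter threshold's own construction.

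Leaving out each library in turn, 2 to 6 of the 39 genes rose and 8 to 14 fell. Of all genes tested, 1582 to 2677 rose and 1634 to 2556 fell. The median of the 39 ran from -0.238 to -0.151. List medians ran from -0.266 to -0.151 for glycolytic enzymes, from -0.267 to -0.0975 for flux control and pyruvate entry, from 0.384 to 0.562 for other glycolytic genes, from 0.0506 to 0.15 for other flux genes, from 0.00129 to 0.156 for other hypoxia regulators and from -0.272 to -0.102 for other hypoxia-induced genes. Sample weights moved the median to -0.226 for glycolytic enzymes and 0.0828 for other hypoxia regulators, and the stricter filter to 0.388 for hypoxia-induced and 0.293 for other glycolytic genes, with fewer genes tested. Among genes not called, the sign turned on leaving out a library for Aldoc (-0.0177 to 0.45), Pgk1 (-0.141 to 0.102), Pgam1 (-2.56 to 0.0397), Ldhb (-0.095 to 0.0796), G6pdx (-0.309 to 0.0893) and Ero1l (-0.0407 to 0.139), and with sample weights for Pgk1 (0.141).

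Genes near the floor (Bnip3 and Aldoc, and in the further lists Eno2, Shpk and Rbks) rest on few reads. The planned comparison of protein sequences was not run. With a pseudocount of 1 or a library left out, the 16 partner differences kept their direction, apart from Pdk1 minus Pdha1 (as low as -0.194) and Pgd minus G6pdx (as high as 0.00782) on leaving out a library.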
